A study of Homo sapiens with 4 samples.

Results

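The regions described here are 12 windows over the centromeres of human chromosomes 2, 3, 5, 6, 8, 9, 11, 16, 17, 18, 19 and 20. They were chosen by coordinates on the hg38 build, they are 4 to 8 Mb long and they add up to 65 Mb. A ChIP-seq peak belonged to a window when its summit, the base of highest coverage, lay inside it. By that rule 1573 of the 15993 peaks of TGF-β1-treated cells and 276 of the 5307 peaks of control cells were members, 1849 of 21300 peaks in all.

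The cells are labelled HSC, with stem cells and progenitors given as their type. One group received TGF-β1, transforming growth factor β1, at 20 ng/mL for 2 h and the other is named control, and the question the design poses is how the ChIP signal of treated cells compares with that of control cells. Each group had 1 ChIP library and 1 input library, sheared chromatin that was not immunoprecipitated. The treatment protocol attached to all 4 libraries also names GDF11 at 100 ng/mL, and the sources used here give neither the antibody nor whether any of these cells received GDF11. With 1 library per group there was no test between conditions, and every interval below covers counting error only.

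Centromeres are the sites where the kinetochore forms and spindle microtubules attach at cell division. In human cells they lie in long arrays of alpha satellite, a short repeat unit copied head to tail, and the active part of an array carries nucleosomes with CENP-A, a centromere-specific form of histone H3. Around the arrays lie pericentromeric satellites, segmental duplications and few active genes, mostly packed as heterochromatin. In hg38 the arrays are represented by modelled sequence rather than by a finished assembly, so a read from a satellite can fit many places, and the place and number of its alignments depend on how the aligner treats such reads. A peak in these windows is therefore a feature of the mapped coverage, and its repeat of origin is uncertain. The rule takes whole windows, so they also hold unique sequence and genes beside the centromeres.

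TGF-β1 peaks were the more numerous in all 12 windows. The windows held 24.2 TGF-β1 peaks and 4.25 control peaks per Mb, a ratio of 5.70 (95% interval 5.01 to 6.50) of their numbers. Over the rest of the genome the same ratio, 14420 to 5031 peaks, was 2.87 (2.78 to 2.96). That rest includes the centromeres of the chromosomes that have no window here. The members made up 9.84% (9.38% to 10.3%) of all TGF-β1 peaks, against 5.20% (4.64% to 5.83%) of all control peaks. In the 3 Mb on either side of each window, 72 Mb in all, there were 289 TGF-β1 and 225 control peaks, or 4.01 TGF-β1 and 3.13 control peaks per Mb. The ratio of 1.28 (1.08 to 1.54) in these flanks was below that in the windows. After duplicate removal the ChIP libraries held 45984282 tags for TGF-β1 and 36280696 for control, a depth ratio of 1.27. The inputs held 46802425 tags for TGF-β1 and 66537905 for control, a ratio of 0.703. Read length also differed with the group, with tags of 43 bp in the TGF-β1 list, against 60 bp in the control list. In repeats shorter reads and a shallower input can both bear on what is called, and because these differences run with the treatment their part cannot be told apart from it.

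**Figure D1:**
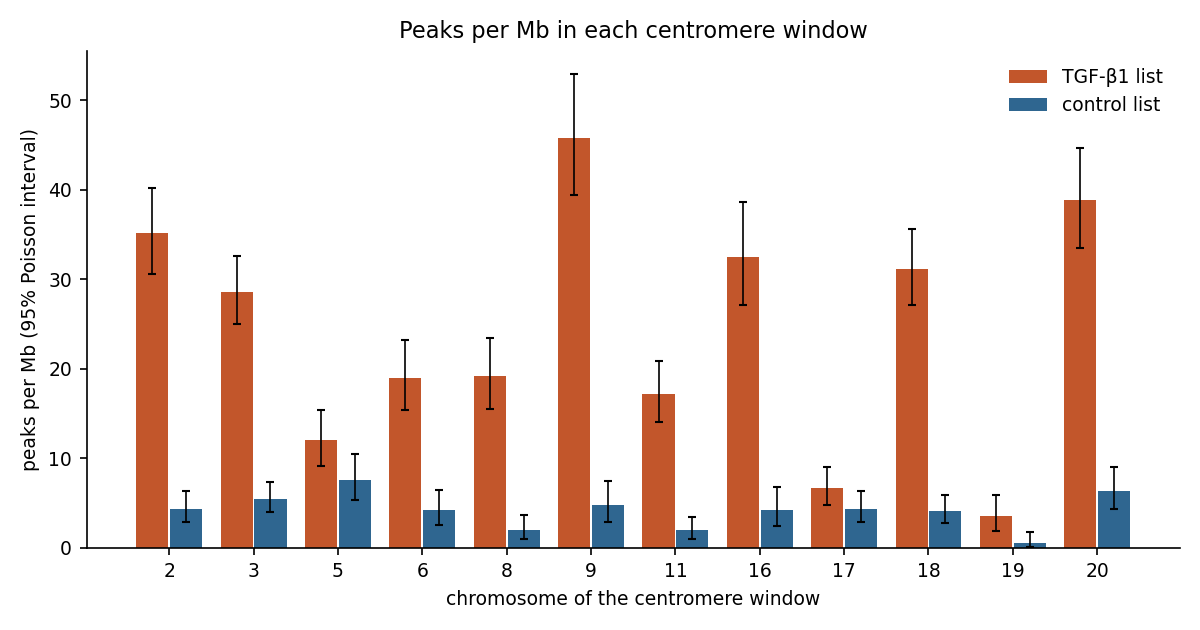
Peaks per Mb (vertical axis) of the TGF-β1 list (left bar of each pair) and of the control list (right bar) in the 12 centromere windows, with exact Poisson 95% intervals as error bars. The TGF-β1 bars run from 3.5 per Mb on chromosome 19 to 45.75 per Mb on chromosome 9, and the control bars from 0.5 on chromosome 19 to 7.6 on chromosome 5.

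Chromosome 9 was the densest window in the TGF-β1 list, with 183 peaks against 19 control peaks, a ratio of 9.63 (5.99 to 16.4). Next in TGF-β1 density came chromosome 20 with 194 TGF-β1 and 32 control peaks, a ratio of 6.06 (4.16 to 9.11), and chromosome 2 with 211 TGF-β1 and 26 control peaks, a ratio of 8.12 (5.39 to 12.7). On chromosome 16 there were 130 TGF-β1 and 17 control peaks, a ratio of 7.65 (4.60 to 13.5). The largest numbers of TGF-β1 peaks were on chromosome 3, with 229 TGF-β1 and 44 control peaks (5.20, 3.76 to 7.36), and on chromosome 18, with 218 TGF-β1 and 29 control peaks (7.52, 5.09 to 11.5). Chromosome 8 had 96 TGF-β1 and 10 control peaks (9.60, 5.00 to 20.7) and chromosome 11 had 103 TGF-β1 and 12 control peaks (8.58, 4.71 to 17.2). In these 8 windows the interval of the ratio lay above the ratio of the rest of the genome. With windows widened by 0.5 Mb at each end, chromosome 16 stood at 3.28 (2.28 to 4.79), an interval that includes the ratio outside, 2.89. With windows narrowed by 0.5 Mb, chromosome 8 stood at 29.3.

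The windows of chromosomes 6, 19, 5 and 17 were sparser or had more even numbers. Chromosome 6 held 95 TGF-β1 and 21 control peaks, and its ratio of 4.52 (2.80 to 7.64) included the value of the rest of the genome within its interval. Chromosome 19 held only 14 TGF-β1 and 2 control peaks, with an interval too wide to place it (7, 1.61 to 63.5). Chromosome 5, with 60 TGF-β1 and 38 control peaks (1.58, 1.03 to 2.44), and chromosome 17, with 40 TGF-β1 and 26 control peaks (1.54, 0.916 to 2.63), lay below the rest of the genome. Across the 12 windows, peaks per Mb of the lists had a Spearman correlation of 0.386 and a Pearson correlation of 0.390, so the windows dense in TGF-β1 peaks were only loosely those dense in control peaks. These are descriptions over windows that share the same libraries.

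The members of the lists differed in what lay beneath them. Local background, the tag density that the peak caller expected at the summit from the input, was computed from the deposited pileup and fold enrichment, and it was called high above 5 times the genome-wide background of 2.32 tags for TGF-β1 and 1.99 tags for control. High background lay under 365 TGF-β1 members, 23.2% (21.2% to 25.4%), against 17.4% of the whole TGF-β1 list. It lay under 167 control members, 60.5% (54.6% to 66.1%), against 40.6% of the whole control list. The median local background was 6.88 tags for TGF-β1 and 23.7 tags for control members. These values are scaled to each ChIP library, with inputs multiplied by 0.983 for TGF-β1 and 0.545 for control.

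Where the background was low, the windows held 1208 TGF-β1 and 109 control peaks. Their ratio of 11.1 (9.10 to 13.6) compares with 3.94 (3.78 to 4.10) over low background in the rest of the genome. Where it was high, they held 365 TGF-β1 and 167 control peaks, a ratio of 2.19 (1.82 to 2.64) that compares with 1.22 (1.15 to 1.3) elsewhere. Over low background the ratio lay between 7.92 on chromosome 11 and 21.0 on chromosome 8 in the 11 windows that had a control peak, with 8.67 (2.66 to 44.7) on chromosome 5 and 9.25 (3.32 to 35.7) on chromosome 17. The intervals of those 2 windows include the value outside. Chromosome 19 had 7 TGF-β1 and 0 control peaks over low background. Over high background the windows spread widely, to 7.50 on chromosome 9 and 0.971 on chromosome 5. On chromosome 17, 3 TGF-β1 peaks faced 22 control peaks over high background, a ratio of 0.136 (0.0261 to 0.454). Chromosome 11 had 8 TGF-β1 and 0 control peaks over high background.

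**Figure D2:**
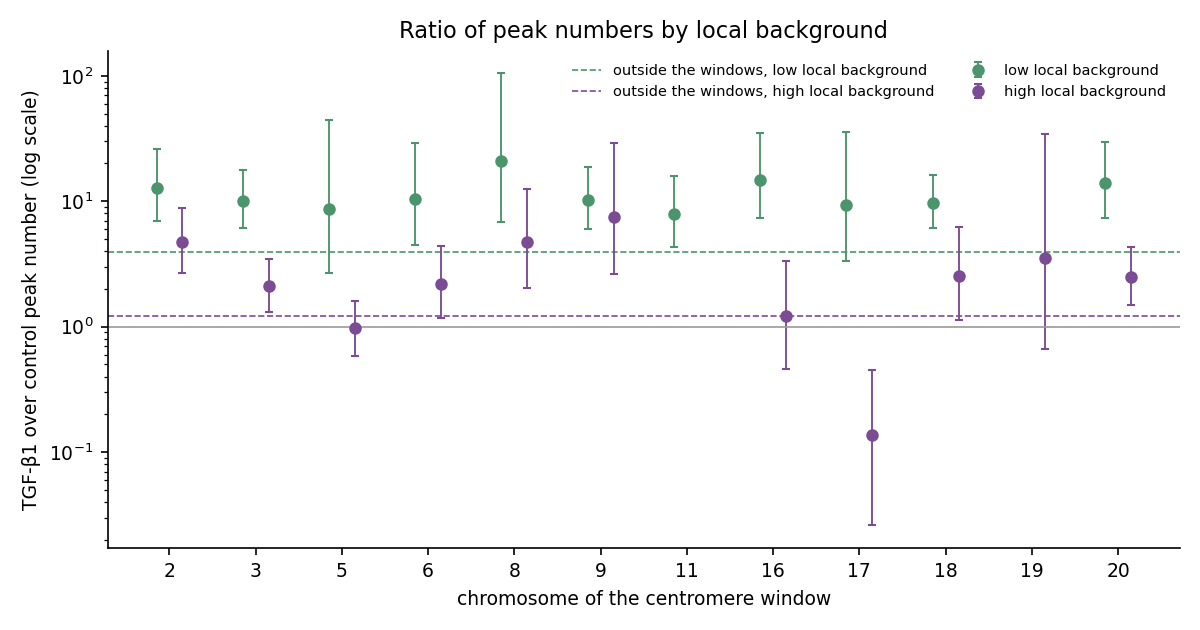
Ratio of TGF-β1 to control peak numbers (vertical axis, log scale) in each window, over low (green) and high (purple) local background, with exact 95% intervals; dashed lines give the same ratios outside the windows and the grey line marks equal numbers. The low-background points lie at 7.92 to 21.0, above the outside value of 3.94, while the high-background points spread on both sides of 1; a window whose control list had 0 peaks in a class has no point there.

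A 1-Mb bin was called dense when it held at least 20 peaks of both lists together. The 37 dense bins outside the windows held 3070 TGF-β1 and 1670 control peaks. Over low background their ratio was 13.6 (10.5 to 17.7), next to 14.6 (11.5 to 18.8) in the 31 such bins of the windows. The intervals overlap, but the bins were chosen by these same peak counts, most of them TGF-β1 peaks, so the ratios depend on the choice. They cannot decide whether the ratio differs between dense bins inside and outside the windows. The bins outside were not sorted by whether they lie at the centromeres of other chromosomes. Over high background the ratio was 2.30 (1.88 to 2.82) in the dense bins of the windows and 1.36 (1.28 to 1.46) in those outside. The mix of backgrounds differed too: 24% of TGF-β1 and 66.7% of control peaks in the dense bins of the windows were over high background, against 71.3% of TGF-β1 and 96.1% of control peaks in the dense bins outside. The ratio over all backgrounds was 6.40 (5.54 to 7.42) in the dense bins of the windows and 1.84 (1.73 to 1.95) in those outside. Of the 31 dense bins in the windows, 2 held more control than TGF-β1 peaks. They were the bin from 26 Mb on chromosome 17, with 7 TGF-β1 and 15 control peaks, and the bin from 49 Mb on chromosome 5, with 32 TGF-β1 and 34 control peaks.

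The shape of the peaks also set the lists apart. Members had a median pileup, the number of extended ChIP tags over the summit, of 26 (range 10 to 216) in the TGF-β1 list, against 58.5 (range 10 to 296) in the control list. Outside the windows the medians were 19 for TGF-β1 and 23 for control. The control median was the higher in 10 of the 12 windows, although the control ChIP library was the shallower. In the TGF-β1 list the window medians stayed between 20.5 on chromosome 16 and 45.5 on chromosome 5. Over low background the members' medians were 23 for TGF-β1 and 22 for control, and over high background 48 for TGF-β1 and 189 for control. In the control list the window medians ran from 20 on chromosome 11 and 23 on chromosome 9 to 218 on chromosome 17 and 234 on chromosome 5.

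Fold enrichment, pileup over local background with 1 added to each, went the other way. It had a median of 3.39 in TGF-β1 members and of 2.67 in control members. In 10 of 12 windows the TGF-β1 median was the higher. Over low background the lists came close, at 3.65 for TGF-β1 and 3.55 for control, whereas over high background the medians were 2.62 for TGF-β1 and 2.17 for control. A fold of at least 5 was found in 104 TGF-β1 members, 6.61% and so near the 6.11% of the whole TGF-β1 list. It was found in 8 control members, 2.90% against 4.56% of the whole control list. Over low background the median fold outside the windows was 3.65 for TGF-β1 and 3.54 for control, near that of the members.

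Control members were also longer. The median length was 158 bp in the TGF-β1 list and 171.5 bp in the control list, and the shortest members had the caller's fragment lengths, 136 bp for TGF-β1 and 148 bp for control. Outside the windows the medians were 160 bp for TGF-β1 and 177 bp for control, so the lists differed there too. Over low background the members' medians were 158 bp for TGF-β1 and 160 bp for control, and over high background 158 bp and 181 bp. TGF-β1 members were shorter in 11 of 12 windows. The longest TGF-β1 member, at chr16:37039274-37039701, was 428 bp long with a pileup of 14. The second longest, of 392 bp, lay at chr18:15548439-15548830. In the control list 15 members were longer than 428 bp, up to 2901 bp at chr5:49656360-49659260 and 1611 bp at chr5:49601435-49603045, with pileups of 289 and 292. These 15 were 5.43% of the control members, near the 5.66% of control peaks outside the windows. TGF-β1 members covered 269 kb and control members 62.4 kb of the 65 Mb.

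A pileup has an upper limit in these files, because the caller kept 1 tag per position on each of 2 strands. The limit is 272 tags in the TGF-β1 list, against 296 tags in the control list, from the fragment lengths. At least 50% of it was reached by 12 TGF-β1 members, 0.763% against 1.89% of the whole list, and by 109 control members, 39.5% against 23.0% of the whole list. At least 90% was reached by 0 TGF-β1 members and by 33 control members, 11.96% of the control members. These 33 lay in 7 windows, led by chromosome 5 with 11, chromosome 3 with 6 and chromosome 20 with 5. Among peaks outside the windows, 2 TGF-β1 and 318 control peaks reached 90%, 6.32% of the latter. TGF-β1 peaks of this height were rare outside too, so their absence was not shown to be particular to the windows. The limit itself was reached by 0 TGF-β1 and 5 control members, 1.81% of the control members. Outside the windows it was reached by 0 TGF-β1 and 47 control peaks, 0.934% of the latter.

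The input has such a limit as well. After scaling to the ChIP library it stands at 267 tags in the TGF-β1 list, against 161 tags in the control list. If every position were filled in both ChIP and input, the caller's own arithmetic would give 1.02-fold enrichment at a −log10 p of 0.431 in the TGF-β1 list. The same filled position would give 1.83-fold enrichment at a −log10 p of 21.1 in the control list. The control members at the limit showed that value: at chr20:28494681-28495124 and chr3:93470356-93470804 the pileup was 296, the local background 161 and the fold 1.83. The other three, at chr5:49645963-49646280, chr5:49630763-49631197 and chr20:28495206-28496007, had folds of 1.91, 1.85 and 1.85. By this arithmetic a completely filled position passes the q limit of 0.05 in the control list and not in the TGF-β1 list. Its part in the difference between the lists was not tested. Among members under 50% of the limit there were 1561 TGF-β1 and 167 control peaks, a ratio of 9.35 (7.96 to 11) against 3.60 (3.48 to 3.73) outside the windows.

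**Figure D3:**
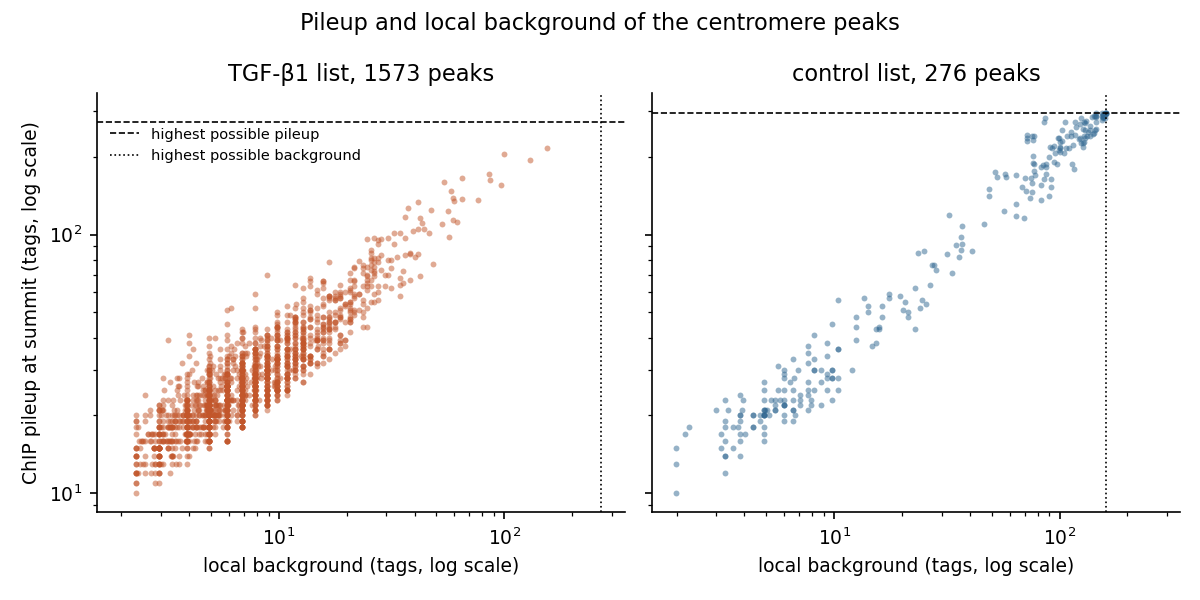
ChIP pileup at the summit against local background (both in tags, log scales) for the 1573 TGF-β1 members (left panel) and the 276 control members (right panel), with the highest possible pileup (dashed) and the highest possible scaled background (dotted) of each list. TGF-β1 members stop at a pileup of 216, under the limit of 272, whereas control members form a second group that runs up to the corner at 296 and 161.

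Along the chromosomes TGF-β1 members were spread over wide stretches and control members were bunched. Neighbouring summits were a median of 12.6 kb apart (95% interval 11.7 to 13.6) in the TGF-β1 list, against 52.2 kb (36.2 to 81.4) in the control list. Gaps under 1 kb made up 61 of 1561 TGF-β1 gaps, 3.91%, and 46 of 264 control gaps, 17.4%. Gaps over 100 kb made up 6.92% of the TGF-β1 gaps and 39.4% of the control gaps. By window the TGF-β1 median spacing went from 7.12 kb on chromosome 2 to 90.4 kb on chromosome 17. The control median was 1.33 kb on chromosome 5, 1.92 kb on chromosome 8 and 11.3 kb on chromosome 17, and reached 267 kb on chromosome 11. On chromosomes 5, 8 and 17 control summits were the closer packed despite their smaller number, and on chromosome 19 the single control gap was 3.50 kb, against a TGF-β1 median of 32.1 kb. The median spacing depended on which peaks were counted. At a −log10 q of at least 5 it was 25.4 kb for TGF-β1 and 22.7 kb (4.89 to 58.6) for control. With lists cut to equal length by fold it was 41.9 kb for TGF-β1 and 52.2 kb for control. Over low background it was 17.4 kb for TGF-β1 and 224 kb for control. Spacing was not computed outside the windows, so the closer packing of control summits was not shown to be particular to them. Merging peaks within 1 kb took the members from 1573 to 1494 for TGF-β1 and from 276 to 217 for control. Outside, it took the peaks from 14420 to 13633 for TGF-β1 and from 5031 to 4216 for control.

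**Figure D4:**
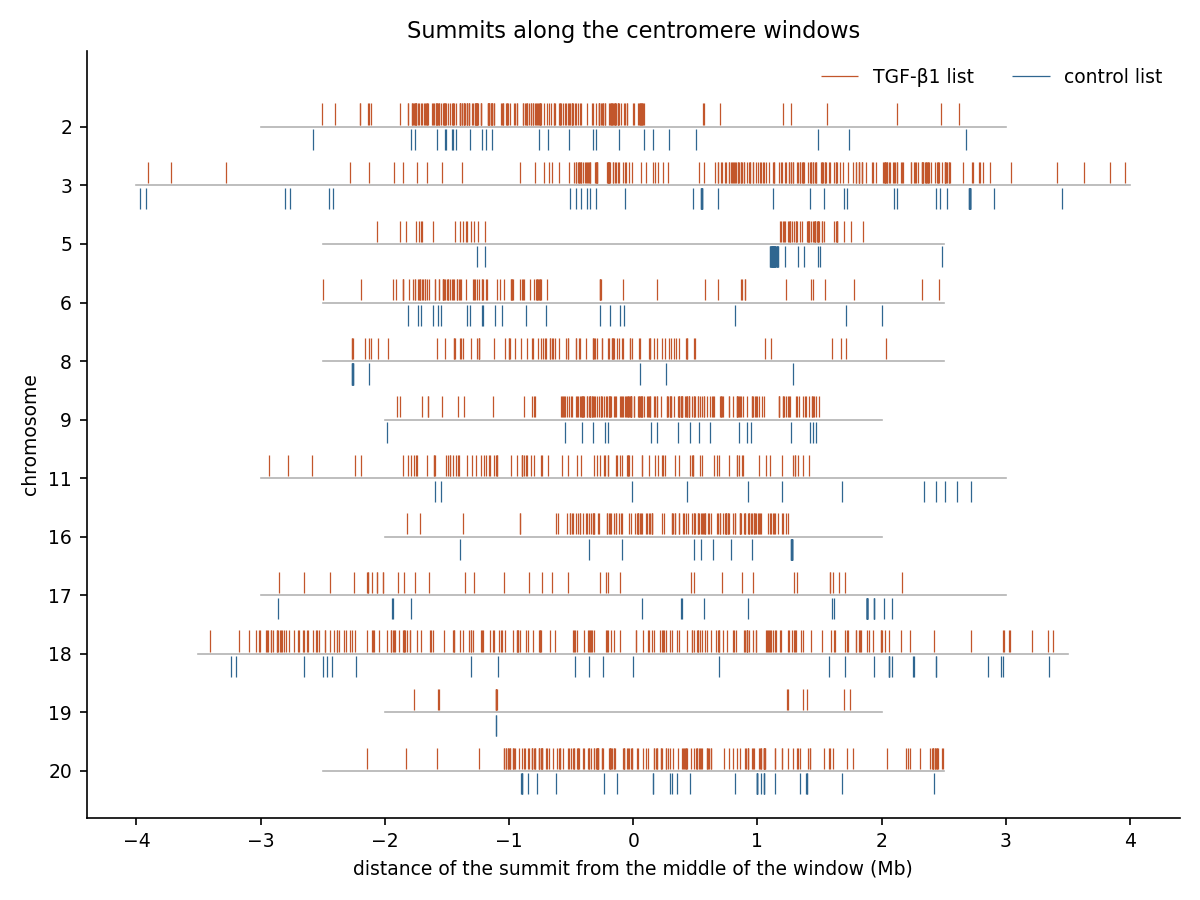
Summits of the TGF-β1 list (orange, above each line) and of the control list (blue, below it) along the 12 windows, as distance in Mb from the middle of the window. TGF-β1 summits fill long stretches, such as the left part of chromosome 2 and nearly all of chromosome 18. Many control summits fall into tight bunches. The bunch with the most peaks is on chromosome 5, at the right edge of a stretch of 2.29 Mb without a summit.

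Runs of at least 5 peaks with gaps of at most 10 kb, limits chosen after the data were seen, show the bunching. In the TGF-β1 list 36 such runs held 229 members, 14.6% of them, with median pileups of 21.5 to 84 and spans of 8.40 to 54.9 kb. In the control list 8 runs held 77 members, 27.9%, with median pileups of 184.5 to 284 and spans of 3.47 to 45.2 kb. The longest TGF-β1 run, of 12 peaks at chr2:93803557-93858479, had a median pileup of 32.5 and folds of 2.01 to 6.67, and no control summit fell within it. Of the 36 TGF-β1 runs, 25 held no control summit, a count that the smaller number of control summits enters. Runs were not counted outside the windows, so none of these numbers was shown to be particular to the windows.

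The longest control run was on chromosome 5 at chr5:49601105-49646280, with 25 peaks in 45.2 kb, pileups of 153 to 296 and a median fold of 2.03. A second run of 5 peaks followed at chr5:49656360-49667368, with a median pileup of 284, and it holds the longest control member. Together they are 30 of the 38 control members of this chromosome. Neither run holds a TGF-β1 summit: the TGF-β1 list was empty from 47306701 to 49681060, a stretch of 2.37 Mb, and resumed past the second run. Other control runs lay on chromosome 3 (10 peaks at chr3:93705675-93715437 and 7 at chr3:91543663-91553264), chromosome 17 (10 at chr17:26880974-26885956), chromosome 16 (9 at chr16:38266270-38280462) and chromosome 20 (5 at chr20:28494681-28498145). In these 7 runs, with 71 peaks, the median fold was between 1.82 and 2.05, and none held a TGF-β1 summit.

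The remaining control run was the exception. At chr8:43237653-43241927, 34.9 kb from HGSNAT, which encodes a lysosomal acetyltransferase, 6 control peaks with a median pileup of 184.5 contained 3 TGF-β1 peaks, each overlapping a control peak. Those 3 were the TGF-β1 members of highest pileup. The first, at chr8:43239644-43239792, had a pileup of 216 and a fold of 1.40 in the TGF-β1 list, against 215 and 1.95 in the control list. The second had 204 and 2.05 in the TGF-β1 list against 187 and 2.13 in the control list, and the third had 194 and 1.49 in the TGF-β1 list against 206 and 1.97 in the control list. Here the pileups were nearly the same and the folds lower in the TGF-β1 list. The local background at the first site was 154 tags in the TGF-β1 list, against 110 in the control list. Before scaling to the ChIP library the order was reversed, with 157 input tags for TGF-β1 and 201 for control.

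Between summits, long empty stretches were rare. Chromosome 5 had no summit of either list from 47306701 to 49601204, 2.29 Mb, and chromosome 19 none from 24905300 to 27241729, 2.34 Mb. In the other 10 windows the longest stretch between neighbouring summits of both lists together was 0.244 Mb on chromosome 9 to 0.659 Mb on chromosome 11, not counting the stretches between the outermost summits and the window edges. No sequence annotation was at hand to say what these stretches hold. The fullest 1-Mb bins of the lists were the same on chromosomes 2, 5, 6, 9 and 19. They held 97 TGF-β1 and 12 control peaks from 92 Mb on chromosome 2, 46 TGF-β1 and 8 control peaks from 59 Mb on chromosome 6, and 83 TGF-β1 and 9 control peaks from 44 Mb on chromosome 9. They differed in the other 7 windows. On chromosome 16 the bin from 37 Mb held 75 TGF-β1 peaks whereas the fullest control bin, with 9 peaks, was the next one. On chromosome 17 the fullest TGF-β1 bin began at 22 Mb with 12 peaks and the fullest control bin at 26 Mb with 15.

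Few sites were called in both lists. An overlap of at least 1 bp was found for 36 TGF-β1 members, 2.29% (1.66% to 3.15%), against 4.81% of the whole TGF-β1 list. It was found for 36 control members, 13.0% (9.57% to 17.5%), against 14.4% of the whole control list. The TGF-β1 share lay below that outside the windows, 5.09% (4.74% to 5.46%), and the control share, at 14.5% outside, did not stand apart. Of the 36 pairs, 28 were over high background in both lists. Over high background the shares were 7.67% (5.36% to 10.9%) of TGF-β1 and 17.4% (12.4% to 23.8%) of control members, below the 26.2% of TGF-β1 and 32.0% of control peaks outside. Over low background the shares were 0.662% (0.336% to 1.3%) of TGF-β1 and 6.42% (3.15% to 12.7%) of control members, against 0.825% (0.678% to 1.00%) of TGF-β1 and 3.09% (2.53% to 3.76%) of control peaks outside. There the control share was the higher in the windows, with overlapping intervals. No pair lay on chromosomes 16 and 17. The control runs there held no TGF-β1 summit, but they contained only 9 of 17 control members on chromosome 16 and 10 of 26 on chromosome 17.

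Where both lists had a peak, the peaks were alike in height. The summits were a median of 24 bp apart, and 31 of 36 were within 60 bp. Pairs were chosen by overlap, so near summits follow in part from that choice. Pairs outside the windows were not compared in this way. The pileup of the TGF-β1 peak over that of the control peak had a median ratio of 1.04 (range 0.739 to 1.27), below the depth ratio of the ChIP libraries. It was higher in the TGF-β1 list in 21 pairs, equal in 3 and lower in 12. Across the 36 pairs log pileups had a Pearson correlation of 0.986, a description over sites that share both libraries. The fold ratio had a median of 0.949 (range 0.716 to 1.82), with the TGF-β1 fold higher in 13 pairs and lower in 23.

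**Figure D5:**
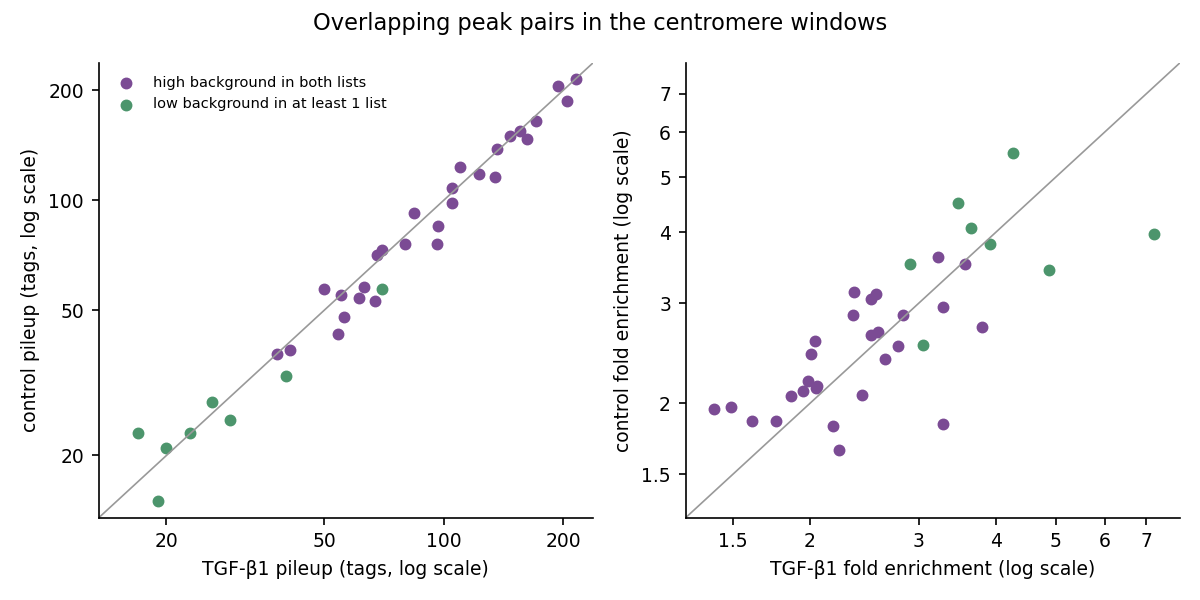
TGF-β1 value (horizontal) against control value (vertical) of the 36 overlapping pairs, for pileup in tags (left) and fold enrichment (right), on log scales with the line of equality. Pileups lie along the line from 17 to 216 tags in the TGF-β1 list, against 15 to 215 in the control list, while folds scatter about it, with a Spearman correlation of 0.752.

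The pair of highest TGF-β1 fold lay at chr2:94085510-94085708, with a pileup of 70 and a fold of 7.21 in the TGF-β1 list, against 57 and 3.96 in the control list. A local background of 8.84 tags in the TGF-β1 list and of 13.6 in the control list accompanied the difference in fold. On chromosome 5 the pair at chr5:49984634-49984790 had pileups of 96 for TGF-β1 and 76 for control and folds of 3.79 for TGF-β1 and 2.72 for control. On chromosome 18 the pair at chr18:19187981-19188143 went the other way, with pileups of 20 for TGF-β1 and 21 for control and folds of 4.26 for TGF-β1 and 5.52 for control. The nearest control summit of a TGF-β1 member was at a median of 61.2 kb, and the nearest TGF-β1 summit of a control member at 13.7 kb. The smaller number of control summits enters both distances. Within 1 kb of a summit of the other list lay 50 TGF-β1 members, 3.18%, and 48 control members, 17.4%. These distances were not computed for peaks outside the windows.

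Ranking by fold favours low background, because fold divides by it. The strongest single sites of the TGF-β1 list by fold were peaks of moderate height over low background. The first was chr18:16875306-16875459, with a pileup of 39, a background of 3.21 tags, 9.51-fold enrichment and a −log10 q of 23.1. Outside the windows the highest TGF-β1 fold was 9.88. Chromosome 18 held 4 of the first 10, the others being at chr18:15877539-15877700 (fold 8.39), chr18:15461649-15461836 (7.79) and chr18:18867201-18867367 (7.54). Then came chr20:26477858-26478090 with 7.44, the chromosome 2 pair above, chr3:93433202-93433358 with 7.18 and chr17:24473374-24473511 with 7.12. The last were chr16:37579589-37579757 and chr16:36858884-36859019 with 7.06 and 6.99. Except for the chromosome 2 site, these 10 overlapped no control peak. None of the 10 lay within 100 kb of a protein-coding gene. The nearest to the first was ANKRD30B at 1.93 Mb, and to the fourth ROCK1, a kinase that acts on the actin cytoskeleton, at 2.08 Mb.

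By pileup the TGF-β1 members were led by the 3 chromosome 8 sites above. After them came chr6:60230210-60230347 with a pileup of 171 and a fold of 1.99, and chr8:44594487-44594636 with 166 and 2.54. The highest of each other window ran from 60 on chromosome 17 and 65 on chromosome 16 to 162 on chromosome 20. On chromosome 19 the highest, 134 at chr19:24891613-24891762, was enriched 3.19-fold at a −log10 q of 24.1, close to the only control peaks of that window.

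Several control members of highest fold lay nearer to genes. The first, chr3:87075499-87075655, with a pileup of 18 and a fold of 5.83, was 84.4 kb from VGLL3, a cofactor of TEAD transcription factors. On chromosome 11, chr11:55508421-55508587 had a fold of 5.66 at 46 kb from the olfactory receptor gene OR4C15, and chr11:55339929-55340076 a fold of 5.35 at 3.19 kb from OR4A16. Between them in rank were chr11:53927626-53927773 with 5.62 and chr18:19187954-19188101 with 5.52, part of the pair above. No control member on chromosome 11 was over high background, and the highest pileup there was 24. The 21 olfactory receptor genes of the chromosome 11 window held no summit of either list, and such genes elsewhere were not counted for comparison.

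Genes took up a small part of the signal. Of 116 protein-coding genes that touch the windows, 16 held a summit, 13 in the TGF-β1 list, 7 in the control list and 4 in both. They contained 24 TGF-β1 members, 1.53% against 30.9% of the whole TGF-β1 list, and 9 control members, 3.26% against 24.1% of the whole control list. More than 500 kb from any protein-coding gene lay 86.9% of TGF-β1 and 69.9% of control members, against 27.2% of TGF-β1 and 33.9% of control peaks outside. The windows of chromosomes 5, 11, 16, 17 and 19 had no summit in a protein-coding gene. No peak touched any of 189 RefSeq promoter windows or 6 microRNA hairpins. The share of such features touched elsewhere was not computed, so these counts are not a trait of the windows.

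KHDRBS2, which encodes an RNA-binding regulator of splicing, had the most summits, 5 in the TGF-β1 list, against 1 in the control list. Its TGF-β1 folds were 3.29, 4.05, 3.65, 3.80 and 3.96 and its control fold 3.11. EPHA3, an ephrin receptor tyrosine kinase gene, held 4 TGF-β1 summits with folds of 2.47 to 3.29 and 0 control summits. GREB1L, a gene known for its part in kidney and inner ear development, held 3 of each list, with folds of 4.87, 4.87 and 3.79 for TGF-β1 and of 3.72, 3.71 and 3.43 for control. One GREB1L site was shared, at chr18:21477585-21477725, with a pileup of 23 in both lists. It was the single overlapping pair inside a protein-coding gene.

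MIB1, a ubiquitin ligase that activates Notch ligands, had TGF-β1 folds of 3.30 and 3.55 and a control fold of 2.55. CNTNAP3B had 4.82 and 3.38 for TGF-β1 and 2.55 for control, but near-identical copies of this gene exist on chromosome 9 and its reads may belong to them. Genes with a single TGF-β1 summit included POTEA (fold 4.52), LOC105375817 (3.92), SPIDR (3.38), ESCO1 (3.21), ABHD12 (3.21), ASTL (3.05) and KANSL3 (2.32). ESCO1 acetylates cohesin, SPIDR takes part in repair of DNA breaks and KANSL3 belongs to a histone acetyltransferase complex. Single control summits lay in PROS1 (4.36), the gene of the anticoagulant protein S, FER1L5 (3.29) and TRIM43B (3.0). Counts of 1 to 5 summits per gene are too few to compare the lists. Among the 471 other genes that touch the windows, pseudogenes and non-coding genes, 18 held a summit, 16 in the TGF-β1 list, against 4 in the control list.

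The size of the ratio rested on which peaks were counted. With peaks of a −log10 q of at least 10 only, the windows held 170 TGF-β1 and 121 control peaks, a ratio of 1.40 (1.11 to 1.79), against 0.972 (0.898 to 1.05) outside. With lists of equal length by fold they held 496 TGF-β1 and 276 control peaks, 1.80 (1.55 to 2.09), against 0.956 (0.919 to 0.995) outside. In both settings the ratio stayed above that of the rest of the genome, and chromosomes 5, 6 and 17 held fewer TGF-β1 than control peaks, as did chromosome 16 in the first.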

How the data were processed

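ChIP-seq coverage was measured in 1 ChIP and 1 input library of TGF-β1-treated cells and of control cells. Reads were aligned with Bowtie2 (version 2) to hg38 and peaks called with MACS2 2.1.0, per the submitters' processing notes. The caller's version is 2.2.7.1 per the file headers. Per the file headers, each condition's ChIP library was called against its own input at a q limit of 0.05, with 1 tag kept per position and the larger library scaled to the smaller. Whether reads were filtered on mapping quality is not stated. Pileup, a signal deposited by the authors, is the number of ChIP fragments, extended from their tags, that cover the summit. The deposited fold enrichment is a ratio, pileup plus 1 over local background plus 1. Values of −log10 p and −log10 q were deposited as the authors' caller gave them. These are the authors' values for each peak.

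The local background was computed as pileup plus 1, divided by fold, less 1. It was a whole number of scaled input tags, within 0.01 tag, at 69.0% of TGF-β1 and 89.5% of control members. The upper limits of pileup and input follow from 1 tag per position on 2 strands and the fragment lengths of 136 and 148 bp, with inputs scaled by 0.983 for TGF-β1 and 0.545 for control. Counts have exact Poisson, shares Wilson, medians order-statistic and ratios of counts exact binomial 95% intervals, all covering counting error only. Peaks are not independent where repeats share reads. Overlap was counted from 1 bp. Genes, promoters and microRNAs were taken from RefSeq tables of hg38. Positions count from 1. Calculations used Python 3.11.15, numpy 2.4.6, pandas 2.3.3 and scipy 1.17.1, and were tested on simulated data. The text names peaks by rank (highest fold, highest pileup, longest, pairs of highest TGF-β1 fold, fullest 1-Mb bins) and protein-coding genes that hold a summit, of which 1 is not reported here. Alternatives were stricter q, lists of equal length, low background, merged peaks, other window edges, other overlap rules and leaving out each window. The members and lists were chosen with earlier results of these data known.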

Additional observations from a re-analysis of the deposited data

How the results depend on the processing

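The number of TGF-β1 members was 703 at a −log10 q of at least 5, 170 at a −log10 q of at least 10 and 496 with lists of equal length. The number of control members was 121 at a −log10 q of at least 10, 109 over low background and 167 under 50% of the pileup limit, a setting chosen after the data were seen. The TGF-β1 to control ratio was 3.82 at a −log10 q of at least 5, 1.40 at 10, 1.80 with lists of equal length, 11.1 over low background, 9.35 under 50% of the limit, 6.88 with peaks within 1 kb merged and 4.88 with windows widened by 0.5 Mb. In each of these settings it was above the ratio outside the windows. The number of windows whose ratio lay above that outside was 5 at a −log10 q of at least 10 and 7 with windows widened or lists of equal length. The shares overlapping the other list were 4.71% of TGF-β1 and 6.61% of control members at a −log10 q of at least 10, 0.806% of TGF-β1 and 1.45% of control members with equal lengths, and 0.579% of TGF-β1 and 6.42% of control members with both lists restricted to low background. Of 46 such alternatives 20 moved the value and 26 did not. A count was called moved beyond a set fold change, and a share or ratio when it left the main interval. A further 124 alternatives concerned ratios of single windows and medians of spacing, length, pileup, fold and background. Of these 55 moved the value, 10 turned a ratio to fewer TGF-β1 than control peaks and 59 did neither.

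Single windows turned to fewer TGF-β1 than control peaks under some settings. At a −log10 q of at least 5 the ratio was 0.971 on chromosome 5 and 0.696 on chromosome 17. At 10 it was 0.323 on chromosome 5, 0.5 on chromosome 6, 0.778 on chromosome 16 and 0.190 on chromosome 17. With equal lengths it was 0.316 on chromosome 5, 0.667 on chromosome 6 and 0.538 on chromosome 17, where widening gave 0.958. The cause was not tested. No ratio could be given where the control list had 0 peaks: chromosomes 11 (13 TGF-β1 peaks) and 19 (3) at a −log10 q of at least 10, and chromosome 19 (7) over low background. Leaving out each window in turn gave 1344 to 1559 TGF-β1 members, 232 to 274 control members, ratios of 5.41 to 6.36 and overlaps of 2.06% to 2.49% for TGF-β1 and 11.2% to 14.4% for control.

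No paired analysis was possible because each condition had 1 ChIP library and the results come from no test. Depth, tag length, fragment length and input depth differed between the conditions, and none can be told apart from the treatment.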
